A study of Mus musculus with 9 samples.

Results

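The small nucleolar RNAs (snoRNAs) and small Cajal body RNAs (scaRNAs) were followed across 3 groups of laser-captured mouse prostate lesions. They were taken as every gene whose symbol begins with Snord, Snora or Scarna and that a probe set names alone. Of 22180 gene symbols with such a probe set, 78 qualified: 47 C/D box RNAs (Snord), 26 H/ACA RNAs (Snora) and 5 Cajal body RNAs (Scarna). Where a symbol had several probe sets, the one with the highest mean log2 intensity over the 9 arrays stood for it. The RNAs were thus chosen by symbol, and their probe sets were selected on that mean, which ignores the groups and mattered for 3 symbols. The family itself was chosen with earlier results of these data known. The counts set beside all genes below therefore describe it and do not test it.

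All mice were males of 12 months and mixed strain that carried PbCre, a Cre recombinase driven by the probasin promoter and so active in prostate epithelium. The T-3Mb-Erg mice carried in addition 1 copy of the T-3Mb-Erg allele, in which the interval between Tmprss2 and Erg is missing. The control mice lacked that allele, and their lesions are not normal tissue. The 9 arrays comprised 3 groups: high-grade prostatic intraepithelial neoplasia (HG-PIN, dysplastic epithelium still within the gland) of 3 control mice, HG-PIN of 3 T-3Mb-Erg mice, and solid tumour of those same 3 T-3Mb-Erg mice. The lesions were microdissected from formalin-fixed, paraffin-embedded sections, and amplified RNA was hybridised to a whole-transcript array, 1 array per capture. The groups thus rest on 6 mice, with 3 arrays a group. The p-values below come from 1 fit of all 9 arrays with a shared estimate of the spread. Each p-value thus also carries the spread of the group that is not compared.

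C/D box RNAs bind the methyltransferase Fbl with Nop56, Nop58 and Snu13 and guide 2′-O-methylation, mostly of ribosomal RNA. H/ACA RNAs bind the pseudouridine synthase Dkc1 with Gar1, Nhp2 and Nop10 and guide the conversion of uridine to pseudouridine. A few members of both classes, among them Snord118 (U8), Snord22 (U22) and Snora73a with Snora73b (U17), act in cutting the ribosomal RNA precursor. Cajal body RNAs guide the same modifications on spliceosomal RNAs in the Cajal body. In mammals most of these RNAs lie within introns of other genes, often genes for ribosomal proteins or nucleolar proteins or noncoding genes of the Snhg type, and are released when the intron is processed. Their output is tied to ribosome production, which is high in proliferating cells.

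On these arrays the enclosing gene, referred to here as the host, was found in the RefSeq gene table for 74 of the 78 RNAs, in 60 distinct hosts. The strand was not compared. Snord13, Snord118, Snord89 and Scarna2 had none. Snhg12 held 4 members, 2410006H16Rik held 3, and 9 further hosts held more than 1. Sequences of the small RNAs themselves were not used here. The windows around the annotated starts of host genes are shown because 1 start serves both the host transcript and the small RNAs within it, whose values are set side by side later. Each window runs from 15 bases before to 15 bases after the start, on the transcribed strand (RefSeq, GRCm38.p6). Capitals mark the letters CTTT, which occur in the pyrimidine tract at the start of many host and ribosomal protein transcripts. The hosts are those with more than 1 member (Rpl3 is not shown) and Snhg18, the host of Snord123.
Snhg12 (chr4:132308663-132308692, plus strand): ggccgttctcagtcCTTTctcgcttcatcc
2410006H16Rik (chr11:62602862-62602891, plus strand): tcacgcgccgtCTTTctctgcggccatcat
2410002F23Rik (chr7:44246707-44246736, plus strand): gaggcggggccttgcgagcgcgatgggtgg
Gnl3 (chr14:31019117-31019146, minus strand): cgtaaatccaacctgtggccgccaggcgag
Kansl2 (chr15:98534255-98534284, minus strand): gagcagccagagggcaagctgcgcggtgcc
Ncl (chr1:86359441-86359470, minus strand): ggctccggggacggacgcgagctctggttg
Nop58 (chr1:59684991-59685020, plus strand): tatttgctgctccacgaggagaggtgtgga
Rps3a1 (chr3:86142654-86142683, minus strand): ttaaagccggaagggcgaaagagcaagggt
Snhg3 (chr4:132353672-132353701, minus strand): tagtcgaccacgcctgacttccgggcgtta
Wdr43 (chr17:71616200-71616229, plus strand): accccgcgccggtgcgcctgcgcccgggcg
Snhg18 (chr15:32244648-32244677, minus strand): accttcccaggcccctcctctagccccgcc
The table held 50 windows for 46 of the hosts. CTTT on the transcribed strand was present in 13 of the 50 (26%), against 12% of all 32851 windows of the table, and on the other strand in 2 of the 50 (4%) against 11.7%. A match is a description of these letters only.

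The levels of the small RNAs spanned most of the range of the array. The brightest C/D box RNA was Snord13 (U13), with a mean of 10.5 log2 units over the 9 arrays, followed by Snord49b (10.3), Snord17 (9.86), Snord47 (9.18), Snord89 (9.14) and Snord118 (8.54). Among H/ACA RNAs the order was Snora33 (10.4), Snora44 (9.03), Snora75 (8.39) and Snora47 (8.20). Among Cajal body RNAs it was Scarna17 (7.41), Scarna10 (7.17) and Scarna2 (6.78). Intensity depends on the probes, so these orders describe probe sets and not molecules. As a gauge of background, 1394 genes of olfactory or vomeronasal receptors, presumed silent in prostate, were used, and 95% of them lay below 4.80. A mean above that gauge was reached by 56 of the 78: 32 C/D box, 20 H/ACA and 4 Cajal body RNAs. The filter that removed the dimmest 25% of all symbols left 69 to test (42, 23 and 4). The 9 removed were Scarna8, Snora15, Snora2b, Snora35, Snord37, Snord72, Snord90, Snord91a and Snord92. The filter lay at 3.25, between Scarna8 (3.24, not tested) and Snora34 (3.29, tested).

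On average the small RNAs lay low in each array of control HG-PIN and high in each array of HG-PIN with the T-3Mb-Erg allele. Each tested RNA was first set against its own mean over the 9 arrays. In control HG-PIN replicates 1, 2 and 3 the median deviation was -0.47, -1.15 and -0.38, and 16, 10 and 26 of the 69 lay above their own mean. In T-3Mb-Erg HG-PIN it was 0.48, 0.47 and 0.72, with 51, 55 and 53 of 69 above. Tumours lay between, at 0.18, 0.19 and -0.23, with 46, 41 and 25 above. The groups of HG-PIN arrays did not overlap in this median, tumour replicate 3 was the lowest of the tumours, and control replicate 2 was the lowest array of all. Over all 16635 genes tested, the same median lay between -0.053 and 0.047 on the 9 arrays.

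**Figure D1:**
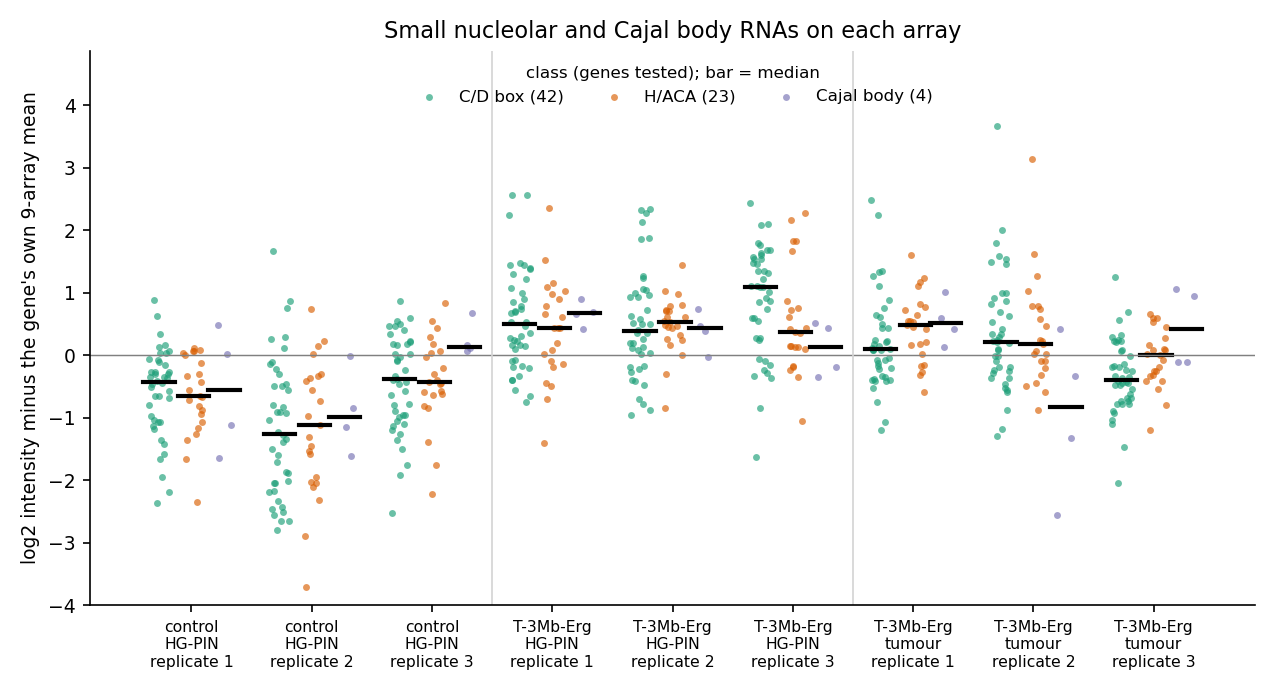
Each point is 1 of the 69 tested small RNAs, plotted as its log2 intensity minus its own mean over the 9 arrays (y axis) for each array (x axis), coloured by class, with black bars for class medians. The control HG-PIN arrays have C/D box medians of -0.43, -1.25 and -0.38, and the T-3Mb-Erg HG-PIN arrays have 0.50, 0.38 and 1.10.

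In both main classes each HG-PIN array of T-3Mb-Erg mice lay above each control array, while tumours did not lie between them throughout. The H/ACA medians were -0.65, -1.12 and -0.43 in control HG-PIN, 0.43, 0.53 and 0.37 in HG-PIN of T-3Mb-Erg mice and 0.48, 0.18 and 0.00 in tumours. The C/D box medians in tumours were 0.10, 0.22 and -0.39. Tumour replicate 3 thus lay as low as the highest control array for C/D box RNAs, and tumour replicate 1 above 2 of the 3 T-3Mb-Erg HG-PIN arrays for H/ACA RNAs. T-3Mb-Erg HG-PIN replicate 3 stood out for C/D box RNAs, with a median of 1.10, but not for H/ACA RNAs. The arrays also differed in how widely their signals spread: the 95th percentile of log2 intensity was 5.95, 5.61 and 5.91 in control HG-PIN, 6.16, 5.83 and 5.78 in HG-PIN of T-3Mb-Erg mice and between 5.63 (replicate 2) and 6.25 (replicate 3) in tumours. Control replicate 2, with the narrowest range, had the lowest small RNAs, whereas tumour replicate 2, nearly as narrow, had a positive median.

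The first comparison asked how HG-PIN differs with the T-3Mb-Erg allele at the same lesion grade, between separate mice. A positive log2 change or difference always means a higher value in the group named first. Of the 69 small RNAs, 63 had a positive log2 change in T-3Mb-Erg HG-PIN, against 49.5% of all genes tested and 57.5% of the 4647 genes above the receptor gauge. The median change was 1.15, or 2.22-fold, against 0.00 for all genes and 0.06 for genes above the gauge. A filter on the mean can keep a dim RNA through the group where it is high; with no filter, 72 of all 78 were positive, with a median of 1.13. By class, 39 of 42 C/D box RNAs (median 1.19), 21 of 23 H/ACA RNAs (1.16) and 3 of 4 Cajal body RNAs (0.95) were positive. A change above 1 was seen for 43 of 69, against 0.902% of all genes and 2.41% of genes above the gauge. The HG-PIN groups did not overlap, with the T-3Mb-Erg arrays higher, for 34 of 69 (all genes: 4.86%), and 0 of 69 lay without overlap in the other direction (all genes: 5.25%).

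No single small RNA passed the test. limma with Benjamini-Hochberg adjustment over 16635 genes called 0% of all genes and 0 of the 69. At an unadjusted p under 0.05, 36 of the 69 were higher and 0 lower, against 1.83% of all genes higher and 2.27% lower. The 95% interval of a member's change had a median half-width of 1.11, which is wide beside the changes themselves. The call depended on the fit. With array weights 6 of the 69 passed, among 9 of all genes, and with the signal range as a numeric term 5, among 6. Both counts include Snord19, which passed the filter on dim genes only through the T-3Mb-Erg HG-PIN arrays. The median change was 0.97 and 1.19 in those fits.

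The C/D box RNAs with the smallest p-values were Snord70, Snord52, Snord1b, Snord19, Snord49a and Snord58b. Snord70, a ribosomal RNA methylation guide within Nop58, had log2 intensities of 3.45, 2.84 and 4.85 in control HG-PIN, 7.07, 7.76 and 7.27 in HG-PIN of T-3Mb-Erg mice and 5.74, 6.50 and 5.21 in tumours. All T-3Mb-Erg HG-PIN arrays lay above all tumours, and all tumours above all controls. Its change between the HG-PIN groups, 3.66 ± 0.49 (SE, limma, Benjamini-Hochberg adjusted p = 0.114), was the highest of all 16635 genes tested, although 2 of the 3 control values lie below the receptor gauge. The control means of Snord70, Snord1b, Snord19, Snord49a, Snord58b and Snora20 are all below that gauge, so the sizes given for them are set against background signal and are not exact.

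Snord52, within the noncoding gene 1110038B12Rik, stood at 5.22, 5.02 and 4.65 in control HG-PIN, 7.85, 7.45 and 7.98 in HG-PIN of T-3Mb-Erg mice and 6.84, 6.94 and 5.66 in tumours, again 3 groups without overlap (2.80 ± 0.40 between the HG-PIN groups, limma, adjusted p = 0.114). Snord1b, within Snhg16, had 4.25, 2.81 and 4.12, then 6.22, 7.19 and 7.11, then 5.40, 4.73 and 6.01 in the same order of groups (3.11 ± 0.45, limma, adjusted p = 0.114). Its groups were ordered in the same way without overlap. Snord19, within Gnl3, a nucleolar GTP-binding protein gene, was near the bottom of the scale in control HG-PIN (2.06, 1.63 and 1.73) and reached 4.95, 5.93 and 5.41 in HG-PIN with the allele. Of the 3 tumours 1 was high (2.90, 5.65 and 2.55). Without the T-3Mb-Erg HG-PIN arrays its mean would have been under the filter, so it was tested only because it is high there, and its change of 3.62 ± 0.63 (limma, adjusted p = 0.269) is a description. The means of Snora34 and Snord42b would also have been under the filter without those arrays, so their changes are descriptions as well. Snord49a (2.47) and Snord58b (2.37) had adjusted p values of 0.426 in limma.

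Among H/ACA RNAs, Snora75 (U23) and Snora20 had the smallest p-values. Snora75, within the nucleolin gene Ncl, stood at 6.04, 6.36 and 6.63 in control HG-PIN, 8.30, 9.84 and 10.22 in HG-PIN of T-3Mb-Erg mice and 9.63, 9.67 and 8.85 in tumours. Control arrays were low and both T-3Mb-Erg groups high, with no array in between. Its change between the HG-PIN groups was 3.11 ± 0.54 (limma, adjusted p = 0.269). Snora20, within the chaperonin gene Tcp1, stood at 4.03, 4.24 and 3.59, then 5.63, 5.67 and 5.84, then 5.70, 5.03 and 4.97. The spread of the T-3Mb-Erg HG-PIN arrays was small, and the change was 1.77 ± 0.28 (limma, adjusted p = 0.163).

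The direction was not limited to RNAs near background. Of the 56 with a mean above the receptor gauge, 52 were positive (genes above the gauge: 57.5%). Among the brightest, Snord89, Snord118, Snora44 and Scarna10 were higher with overlap, and Snora47 and Scarna17 were not higher. The next 3 are examples without overlap. Snora33, within the ribosomal protein gene Rps12, stood at 9.28, 8.33 and 9.83 in control HG-PIN against 10.00, 11.43 and 12.61 in T-3Mb-Erg HG-PIN. A dimmer probe set named for Snora33 alone overlapped, at 3.02, 2.77 and 2.09 against 4.34, 1.96 and 4.93. Snord47, within the growth-arrest gene Gas5, stood at 8.05, 6.73 and 8.06 against 9.33, 10.42 and 10.87. Snord17, within Snx5, stood at 9.07, 8.52 and 9.29 against 10.13, 10.58 and 11.33. For each of the 3 the groups did not overlap, with changes of 2.20, 2.59 and 1.72, and limma's adjusted p was 0.998, 0.754 and 0.998. The precursor-cutting RNAs had changes of 1.38 (Snord118), 0.54 (Snord22), 0.97 (Snora73a) and 1.37 (Snora73b), and only Snora73b was without overlap.

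Not every small RNA shared the direction. The 6 with a negative value were Snora78 (-0.38), Snord88a (-0.37), Snord8 (-0.12), Snord85 (-0.11), Snora47 (-0.09) and Scarna17 (-0.02), all with overlapping groups. Snora47 was bright and flat: 7.87, 8.94 and 8.25 in control HG-PIN, 8.06, 8.37 and 8.35 in HG-PIN of T-3Mb-Erg mice and 7.88, 8.22 and 7.90 in tumours. Of the other Cajal body RNAs, Scarna2 (0.78) and Scarna6 (1.13) were higher without overlap. Scarna10 (U85), a guide for the U5 spliceosomal RNA, differed by 1.29 with overlap.

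**Figure D2:**
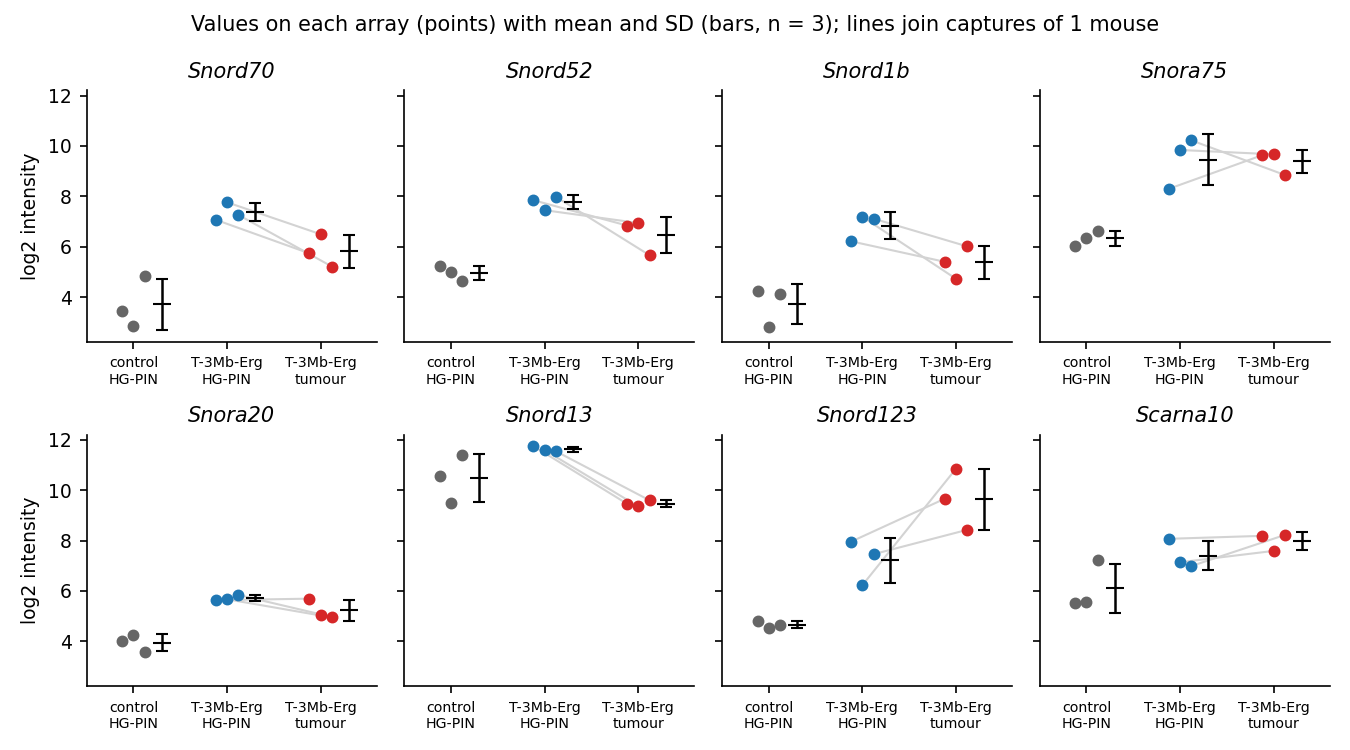
Log2 intensity (y axis) of 8 small RNAs on each array, by group (x axis); points are arrays, black bars are the mean and SD of 3, and grey lines join the HG-PIN and tumour captures of 1 mouse. Snord70, Snord52 and Snord1b show 3 groups without overlap, and Snord123 is highest in tumours.

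The second comparison followed the same 3 mice from HG-PIN to solid tumour. Of the 69 small RNAs, 51 had a negative change in tumours, against 51.1% of all genes and 50.9% of genes above the gauge. The median was -0.47 (all genes: -0.01), and it was lower for C/D box RNAs (-0.59, 32 of 42 negative) than for H/ACA RNAs (-0.19, 16 of 23 negative); this difference between classes was not tested. limma called 0 of the 69 and 47 of all genes (0.283%). At an unadjusted p under 0.05, 9 were lower and 1 higher, against 3.98% of all genes lower and 3.67% higher. All 10 were C/D box RNAs. The groups did not overlap, with tumours lower, for 11 of 69 (all genes: 6.43%).

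The mice differed in extent. In mice 1, 2 and 3 the tumour was lower than the HG-PIN of the same mouse for 40, 41 and 53 of the 69, with median differences of -0.34, -0.24 and -0.64. C/D box RNAs had medians of -0.45, -0.11 and -1.16, and H/ACA RNAs 0.06, -0.24 and -0.45. A lower value in 3 of 3 mice was found for 19 of the 69 (all genes: 13.1%), and a higher one for 4 (all genes: 11.5%). Mouse 3 contributed most: without its tumour array the median change was -0.26.

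Snord13 (U13), the brightest of the set, had the smallest p-value here. It stood at 11.75, 11.59 and 11.54 in HG-PIN and at 9.46, 9.35 and 9.60 in tumours of the same mice, while control HG-PIN was spread over 10.56, 9.50 and 11.39. The arrays within each T-3Mb-Erg group were close together, and the difference was of about the same size in each mouse. The change was -2.16 ± 0.53 (limma, adjusted p = 0.173). Snord13 has a promoter of its own and no host, unlike most of the set.

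Among the other C/D box RNAs, the 3 that separated all groups in the first comparison lay between their HG-PIN groups in tumours: Snord70 differed by -1.55, Snord1b by -1.46 and Snord52 by -1.28 (limma, adjusted p from 0.340 to 0.371). Snord35a, within Rpl13a, stood at 5.06, 4.91 and 7.15 in HG-PIN and at 3.51, 4.42 and 4.26 in tumours (-1.64, limma, adjusted p = 0.351). Snord110, within Nop56, and Snord73b, within Rps3a1, differed by -1.33 and -1.72 (both limma, adjusted p = 0.465), the latter with overlap. Those levels of Snord35a and Snord110 in tumours fall below the receptor gauge.

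Snord123 went the other way. It stood at 4.82, 4.53 and 4.65 in control HG-PIN, 7.96, 6.23 and 7.46 in HG-PIN of T-3Mb-Erg mice and 9.66, 10.85 and 8.43 in tumours, higher in the tumour than in the HG-PIN of each of the 3 mice. No array of a group overlapped another group. The change from HG-PIN to tumour was 2.43 ± 0.61 (limma, adjusted p = 0.187), and its range over the 9 arrays, 6.32 log2 units, was the widest of the set.

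The third comparison set tumours of T-3Mb-Erg mice against control HG-PIN; it shares arrays with the other 2, and lesion and allele cannot be told apart in it. Snord123 was the one small RNA called, at 4.98 ± 0.60 (SE, limma, Benjamini-Hochberg adjusted p = 0.0138), among 30 of all genes (0.18%). The control mean, 4.67, is not above the receptor gauge of 4.80, so no exact fold is given. The call was lost without control replicate 1, control replicate 3 or tumour replicate 1 (adjusted p = 0.0773, 0.105 and 0.0843) and held in 16 of 19 alternative settings. Its host, Snhg18, stood at 4.90, 4.94 and 5.07 in control HG-PIN, 4.29, 5.14 and 4.74 in HG-PIN of T-3Mb-Erg mice and 6.06, 5.60 and 5.79 in tumours. The host was thus higher in tumours without overlap (0.85, limma, adjusted p = 0.288), but not in HG-PIN with the T-3Mb-Erg allele, where Snord123 was already above control.

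Of the 69, 54 were positive in tumours against control HG-PIN (all genes: 46.3%, genes above the gauge: 51.3%), with a median of 0.78 against -0.03 for all genes. A change above 1 was seen for 29 (all genes: 2.58%, genes above the gauge: 5.38%). At an unadjusted p under 0.05, 22 were higher (all genes: 4.74%) and 0 lower (all genes: 4.59%). The groups did not overlap for 23, with tumours higher (all genes: 6.2%), and for 1, Snord8, with tumours lower (all genes: 7.51%). After Snord123 the smallest p-values belonged to Snora75 (3.04 ± 0.54, limma, adjusted p = 0.0548) and Snora20 (1.28, 0.0970). Snord70 (2.11), Snord61 (2.34), Snord52 (1.52), Snora19 (1.44) and Snord58b (1.90) followed, with limma's adjusted p from 0.124 to 0.165. Scarna10 stood at 5.52, 5.56 and 7.24 in control HG-PIN and 8.19, 7.59 and 8.22 in tumours (1.89, limma, adjusted p = 0.192). The RNAs lower by more than 1 were Scarna17 (-1.13), Snord66 (-1.04) and Snord13 (-1.01). Scarna17 was low on 1 tumour array, replicate 2 (7.84, 4.85 and 7.30). The median depended on the arrays used: it was 0.46 without the array of narrowest range in each group and 1.07 without control replicate 3.

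**Figure D3:**
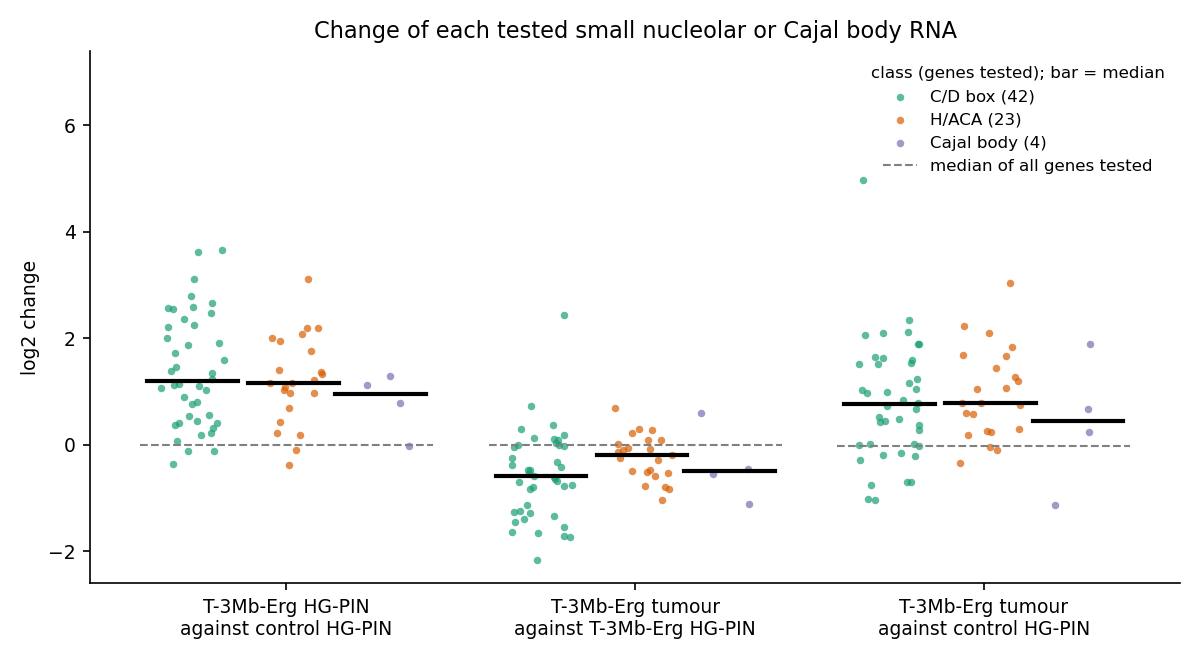
Log2 change (y axis) of each tested small RNA in the 3 comparisons (x axis), coloured by class; black bars are class medians and dashed lines the median of all 16635 genes tested. In T-3Mb-Erg HG-PIN against control HG-PIN the class medians are 1.19, 1.16 and 0.95; the highest point in tumours against control HG-PIN is Snord123 at 4.98.

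The median change of the hosts lay nearer to 0 than that of the small RNAs within them. Of the 60 hosts, 44 had a tested probe set of their own, which gave values for 52 small RNAs. Between the HG-PIN groups, 32 of the 44 hosts were positive, but with a median of 0.19, and 1 of them (Nop56, 1.04) exceeded 1. The change of the small RNA was above that of its host for 45 of the 52, by a median of 1.27. From HG-PIN to tumour the relation was turned: the hosts had a median of 0.10, and 11 of 52 small RNAs were above their host. limma called 0 of the 44 hosts in any of the 3 comparisons. Some tested hosts, such as Rpl37 (mean 3.25), Rpl39 (3.40) and Snhg1 (3.63), lay below the receptor gauge of 4.80. Their changes are set against background signal and are not exact.

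The hosts with several members differed in this. Snhg12 differed by -0.64 between the HG-PIN groups, while the small RNAs within it differed by 2.00 (Snora16a), 1.92 (Snord99), 1.04 (Snora44) and 0.17 (Snora61). Ncl differed by 0.77 and its Snora75 and Snord82 by 3.11 and 2.67. Nop58 differed by -0.18, and its Snord70 and Snord11 by 3.66 and 1.06. The gene 2410006H16Rik differed by 0.47 and its Snord49a, Snord65 and Snord49b by 2.47, 2.25 and 1.60. Gnl3 differed by 0.35, its Snord19 by 3.62 and its Snord69 by 0.41. In Rps3a1 (0.66), Snord73b differed by 2.56 and Snord73a by 0.06, and in Rpl3 (-0.53), Snord43 differed by 2.01 and Snord83b by 1.47. Some members did not exceed their host: Wdr43 differed by 0.43 and its Snord53 by 0.40, and 2410002F23Rik by 0.04 and its Snord88a by -0.37. The other member of 2410002F23Rik, Snord88c, lay above its host, at 0.18. Kansl2 (-0.39) and Snhg3 (0.16) lay below their tested members, Snora34 (1.15) in the former and Snora73a (0.97) and Snora73b (1.37) in the latter. Snora34 passed the filter only through the T-3Mb-Erg HG-PIN arrays. The hosts Snhg12 (mean 4.64), Nop58 (4.67), Kansl2 (4.41) and Snhg3 (4.11) lay below the receptor gauge of 4.80, so their own changes are not exact. Within Nop58, Gnl3 and Rps3a1 the changes of the members were more than 2 log2 units apart. Each of these pairs holds an RNA whose control mean lies below the gauge: Snord70 (3.71), Snord19 (1.81) with Snord69 (3.50), and Snord73a (3.98). Those distances are therefore not exact.

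**Figure D4:**
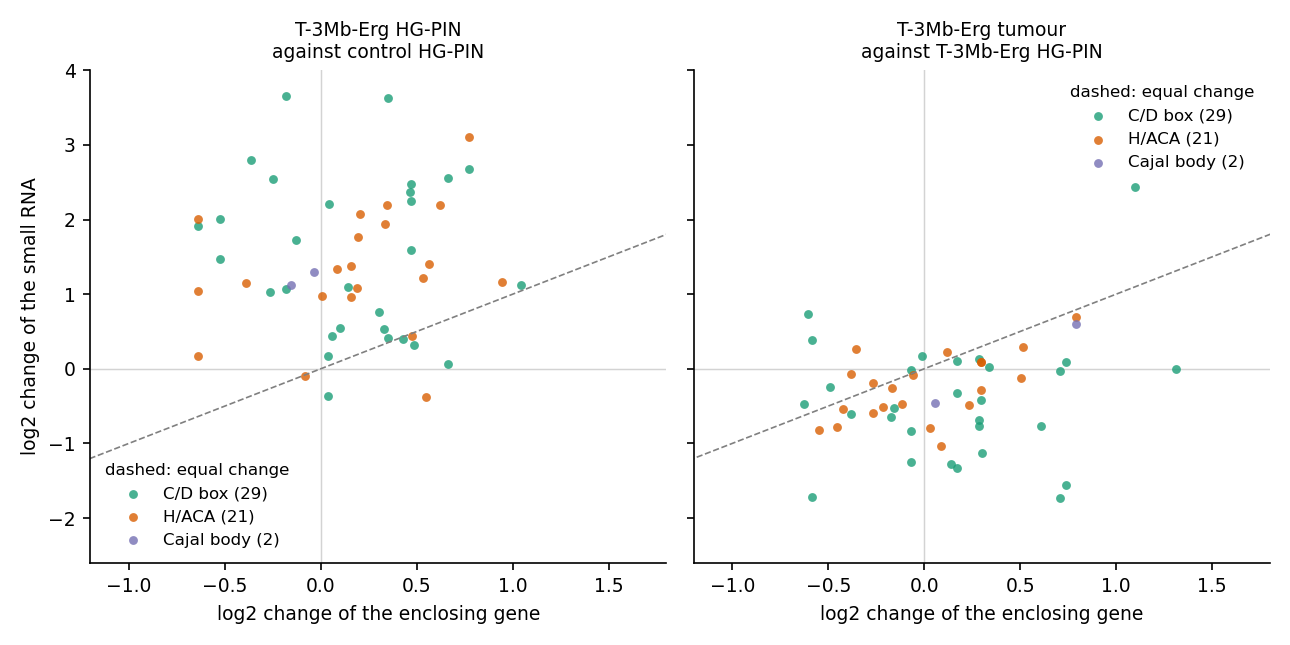
Log2 change of each small RNA (y axis) against that of the gene that encloses it (x axis) for 52 small RNAs, coloured by class, in T-3Mb-Erg HG-PIN against control HG-PIN (left) and in tumour against T-3Mb-Erg HG-PIN (right); the dashed line marks equal change. On the left 45 of 52 points lie above the line, on the right 11 of 52.

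None of the protein partners of the small RNAs passed the test. Of the C/D box core proteins, Nop56 differed by 1.04 between the HG-PIN groups (5.75, 5.87 and 5.96 against 7.03, 6.71 and 6.97, limma, adjusted p = 0.998), Nop58 by -0.18 and Snu13 by 0.02, and no probe set named Fbl alone. From HG-PIN to tumour these 3 were positive, at 0.17, 0.74 and 0.51, where most C/D box RNAs were negative. The H/ACA core proteins Dkc1, Gar1, Nhp2 and Nop10 differed by -0.19, 0.17, 0.06 and -0.11. The 10 tested assembly factors had medians of 0.04, 0.08 and 0.12 in the 3 comparisons. Among them Nolc1, a nucleolar and coiled-body phosphoprotein, differed by 0.68 between the HG-PIN groups without overlap (3.82, 3.52 and 3.52 against 4.05, 4.35 and 4.51, limma, adjusted p = 0.998), all below the gauge. The 4 Cajal body proteins (Coil, Wrap53, Smn1 and Tgs1) had 0.14, -0.10 and -0.07. The 17 tested noncoding host genes had medians of 0.14, 0.04 and 0.17. limma called 0 genes of these lists in the 3 comparisons. Most of the protein genes lay near background. A mean above the gauge was reached by 2 of the 3 C/D box core proteins with a probe set and 1 of the 4 H/ACA core proteins. It was reached by 1 of the 11 assembly factors, 0 of the 4 Cajal body proteins and 9 of the 18 noncoding host genes with a probe set. This limits what their small changes show.

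Short RNAs of other kinds were read as well. Of 9 tested short noncoding RNAs under other symbols, all 9 were positive between the HG-PIN groups, with a median of 1.14, and all 9 in tumours against control HG-PIN (0.72), with 0 called by limma. From HG-PIN to tumour 5 of the 9 were positive, with a median of 0.10, beside -0.47 for the small nucleolar and Cajal body RNAs. Rnu3a (U3), a C/D box RNA needed to cut the ribosomal RNA precursor, differed by 1.29, the 5S ribosomal RNA n-R5s136 by 2.15, the Ro-associated Rny1 and Rny3 by 1.53 and 1.14 and the minor spliceosomal Rnu12 by 1.26. The very bright Rn7sk, which restrains transcription elongation, differed by 0.22, Rpph1, the RNA of ribonuclease P, by 0.43, and Terc, the H/ACA-type telomerase RNA, by 0.15. microRNA genes did not share the direction: of 223 tested, 93 were positive between the HG-PIN groups, with a median of -0.13, and 0 were called. They also differed in level: 90 of the 483 with a probe set had a mean above the receptor gauge, against 9 of the 10 other short RNAs.

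Cell type markers differed along with the groups as well. In T-3Mb-Erg HG-PIN against control HG-PIN, 4 of 4 basal epithelial markers (median 1.09), 8 of 8 fibroblast markers (0.79), 6 of 6 smooth muscle markers (1.05) and 6 of 8 luminal markers (0.36) were positive. The basal marker Trp63, with a mean of 4.62 below the gauge, differed by only 0.05. Endothelial markers were positive for 4 of 5 (0.34), macrophage markers for 5 of 6 (0.18) and T and B cell markers for 1 of 2 (-0.01). From HG-PIN to tumour, 8 of 8 luminal markers (-2.25, 4 called lower) and 4 of 4 basal markers (-1.78, 1 called lower) were negative. There 8 of 8 fibroblast markers (1.61) and 5 of 5 endothelial markers (0.87) were positive, as were 4 of 6 macrophage markers (0.17, 1 called lower). On the linear scale the summed luminal signal ran from 429 to 2827 in control HG-PIN, from 1019 to 1325 in HG-PIN of T-3Mb-Erg mice and from 221 to 346 in tumours. The basal sum ran from 147 to 249, from 520 to 610 and from 95.5 to 130, the fibroblast sum from 161 to 205, from 228 to 628 and from 455 to 3332, and the smooth muscle sum from 162 to 187, from 211 to 936 and from 155 to 426. On control HG-PIN replicate 3 the luminal marker Pbsn stood at 10.80, against 5.77 and 3.57 on control replicates 1 and 2. That 1 gene made most of the luminal sum of 2827. Of the 8 luminal markers with a probe set, 6 had 9-array means above the gauge, and Pbsn (4.67) and Hoxb13 (3.89) did not. Epcam and Cdh1, which mark epithelium, lay above it on all HG-PIN arrays but close to or below it in tumours (Epcam 3.84, 3.87 and 4.81, Cdh1 4.31, 4.94 and 5.02). The part of cell mixture in the small RNA values was not tested. In such captures fewer cells of a type and less RNA per cell cannot be told apart.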

How the data were processed

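The authors deposited linear intensity values for 41345 probe sets on 9 arrays (Affymetrix Mouse Gene 2.0 ST, NuGEN amplification, per the labels' protocols); the sources used here do not give their background correction or normalization. Groups and mice came from the labels; a further allele that all groups shared is not reported here. Probe sets with 1 symbol in the platform annotation (23521), updated through a RefSeq table (GRCm38.p6), were log2-transformed without a pseudocount. The dimmest 25% were removed. limma 3.58.1 (R 4.3.3) fitted the group means, with the mouse as a random block (consensus correlation -0.01; same-mouse correlations 0.17, 0.10 and -0.30, pairing from the labels), a mean trend and Benjamini-Hochberg adjustment, and the code was tested on simulated data. Members and lists were chosen with earlier results of these data known. RNAs named were those called, the 8 smallest p-values per comparison, the brightest 6, 4 and 3 per class, the 5 widest ranges, all Cajal body RNAs tested, and the hosts with most members; others serve as examples chosen after their values were seen. Hosts were meant to share the strand, which the table lacks. Alternatives covered probe sets, filters, pseudocount, normalization, weights, blocks and arrays left out.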

Additional observations from a re-analysis of the deposited data

How the results depend on the processing

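The number of small RNAs called, which was 0, 0 and 1 in T-3Mb-Erg HG-PIN against control HG-PIN, tumour against T-3Mb-Erg HG-PIN and tumour against control HG-PIN, depended on the fit. Array weights gave 6, 4 and 13, among 9, 405 and 938 of all genes. The signal range as a numeric term gave 5, 1 and 5, among 6, 180 and 171. Leaving out the narrowest-range array of each group gave 1, 2 and 2, among 4, 182 and 260 (there the mouse block could not be estimated and was dropped). Only the 6 arrays compared gave 2 in the first comparison, among 4 of all genes. Genes above the receptor gauge alone gave 1 in the second and 2 in the third, among 65 and 47 of those genes. The mean of all probe sets gave 2 in the third, among 41. Leaving out single arrays gave 0 to 4, 0 to 1 and 0 to 4. Without tumour replicate 2 the comparisons with control HG-PIN gave 4 each, among 6 and 261 of all genes. Snord19, which passed the filter only through the T-3Mb-Erg HG-PIN arrays, was among the calls in 5, 3 and 1 settings of the 3 comparisons. In the first it was the only call without the narrowest-range arrays. The medians stayed between 0.92 and 1.51, -0.50 and -0.26, and 0.46 and 1.07 over all settings; leaving out single arrays gave 0.94 (without control replicate 2) to 1.51 (without control replicate 3) in the first and -0.50 to -0.26 in the second. A fixed replicate block for the mouse left the second comparison with 0 calls and a median of -0.47. The alternatives reversed no direction for the 8 RNAs of smallest p in each comparison; other RNAs were not followed singly, and values near 0, such as those of Snora47 and Scarna17 between the HG-PIN groups, have no settled direction. Depth does not exist for arrays; 3 per group and signals near background limit the precision, above all for the 13 tested RNAs below the gauge.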

Other observations

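A further 46 probe sets named a small nucleolar or Cajal body RNA beside another gene and were left out above, since the signal cannot be assigned to 1 of them. They held 31 distinct sets of values. Of these, 25 had a higher mean in T-3Mb-Erg HG-PIN than in control HG-PIN, with a median difference of 0.73. Without overlap, 12 of the 31 were higher and 1 lower, beside 4.86% and 5.25% of all genes tested. Those shares cover probe sets with 1 symbol, and none was computed for all probe sets with several. In tumours against T-3Mb-Erg HG-PIN, 9 were higher, with a median of -0.35. Among pairs with a coding gene, the probe set naming Snord2 with Eif4a2 differed by 2.39 between the HG-PIN groups, that of Snord34 with Rpl13a by 2.00, and that of Snord57 with Nop56 by 1.92. The pair naming Snord1c with Snord1b differed by 2.31 and 2.21, in the direction of Snord1b alone.

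The Snord116 copies, which belong to an imprinted cluster known from brain, went against this direction. They were read by 16 probe sets with identical values, named Snord116l1, Snord116l2 and Gm26504, and counted once. Log2 intensities were 6.76, 8.11 and 8.31 in control HG-PIN, 5.90, 7.00 and 6.82 in HG-PIN of T-3Mb-Erg mice and 6.16, 7.80 and 5.84 in tumours. The differences from control HG-PIN were -1.15 and -1.13, and the groups overlapped in both.

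Some of the widest ranges over the 9 arrays belonged to RNAs that varied within groups. Snora34 (range 5.10) stood at 5.66 on 1 T-3Mb-Erg HG-PIN array and 6.44 on 1 tumour array, and between 1.34 and 3.47 on the rest. Snora23 (4.88) was low on 1 array, control HG-PIN replicate 2 (3.62, against 7.43 and 6.74 on the other control arrays). Snord65 (4.66) was lowest on the same array, at 3.88. Both probe sets of Snora33 were named for it alone, yet had means of 10.4 and 3.29, the largest disagreement among the 3 symbols with more than 1 probe set; those of Snora19 had identical values.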
